A study of Arabidopsis thaliana with 163 samples.

Results

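A set of 610 H3K9ac domains of Arabidopsis thaliana seedlings was examined that gained the mark after jasmonate in 2 separate experiments and that touched neither a MYC2 peak nor an H3K27me3 domain. H3K9ac is acetylation of lysine 9 of histone H3, read here by chromatin immunoprecipitation and sequencing on the high-throughput PHILO platform, and a domain is a stretch of genome in windows of 200 bp where the reads of 1 library set exceed those of another. The members were chosen by their readouts. Each was listed as a gain on JA for 2 h by the large-scale experiment, on chromosomes 1 to 5, overlapped a gain after 2 h of JA in the time course experiment by at least 1 bp, and shared no base with an H3K27me3 domain or a MYC2 peak. Of 2144 large-scale gains, 1098 (51.2%) overlapped a time course gain, and the 610 members were 55.6% of those repeated gains. Of the others, 264 held a MYC2 peak outside H3K27me3 and 224 overlapped H3K27me3.

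Both JA comparisons used 10-day-old whole seedlings of the wild type Col-0, exposed to gaseous methyl jasmonate (MeJA) for 2 h or kept as controls, with 3 replicates of each condition. The MYC2 samples are 2 replicates each titled as JA for 2 h and as control. The study's methods name the myc2 MYC2:MYC2-FLAG line, in which a tagged transgene stands in for the mutated gene, whereas the characteristics in the sample labels give Col-0, an antibody against H3K9ac and no treatment. The peaks behind the rule are taken here as MYC2 peaks from the titles and the methods. The marks H3K4me3, H3K36me3 and H3K27me3 and 5 further H3K9ac libraries (2 by regular ChIP-seq and 3 by PHILO) came from Col-0 seedlings of the same age without JA, and the H3K4me3 list could stem from either of 2 such groups. Whole seedlings mix all cell types, so that a change in many cells and a larger change in few cannot be told apart.

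Jasmonates are wound and defence hormones whose perception removes JAZ repressors from MYC2, a transcription factor that binds the G-box CACGTG, and H3K9ac marks the first part of transcribed genes. H3K4me3 lies at the start of active genes, H3K36me3 along their transcribed bodies and H3K27me3 on genes that Polycomb complexes keep silent. The nucleolus, where ribosomal RNA is made and modified under the guidance of small nucleolar RNAs (snoRNAs), and the circadian clock, whose evening genes carry the evening element in their promoters, are followed among the members.

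Promoter sequence is shown for genes from those 2 groups, since no MYC2 peak marks a sequence in the members themselves. Each run is the 300 bases before the annotated start site in TAIR10.1 of RefSeq, written 5′ to 3′ on the strand of the gene. FKF1, a blue-light receptor of the flowering and clock pathway (chr1:25508339-25508638, plus strand), and PRR5, a repressor of morning clock genes (chr5:8358547-8358846, minus strand), had 1 and 2 copies of the evening element AAAATATCT, which is in capitals on either strand.
FKF1: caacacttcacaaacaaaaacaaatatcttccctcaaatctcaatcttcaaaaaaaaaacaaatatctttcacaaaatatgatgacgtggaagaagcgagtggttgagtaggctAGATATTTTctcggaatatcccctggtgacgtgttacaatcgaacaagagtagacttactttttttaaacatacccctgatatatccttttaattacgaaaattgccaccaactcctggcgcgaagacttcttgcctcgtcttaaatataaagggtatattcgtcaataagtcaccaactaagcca
PRR5: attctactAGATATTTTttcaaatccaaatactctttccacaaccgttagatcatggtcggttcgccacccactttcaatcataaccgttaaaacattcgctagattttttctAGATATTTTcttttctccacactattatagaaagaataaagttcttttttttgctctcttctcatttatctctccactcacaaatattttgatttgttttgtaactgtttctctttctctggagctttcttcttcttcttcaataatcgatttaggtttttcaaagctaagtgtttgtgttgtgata
The next 3 belong to the nucleolus and the ribosome. They are FIB1, a fibrillarin that methylates ribosomal RNA (chr5:21293847-21294146, plus strand), and the ribosomal protein genes AT2G37600 (chr2:15775375-15775674, minus strand) and AT1G18540 (chr1:6378581-6378880, minus strand). Capitals mark the telo-box AAACCCTA and the site II element TGGGCC or TGGGCT on either strand, motifs known from promoters of ribosomal protein genes.
FIB1: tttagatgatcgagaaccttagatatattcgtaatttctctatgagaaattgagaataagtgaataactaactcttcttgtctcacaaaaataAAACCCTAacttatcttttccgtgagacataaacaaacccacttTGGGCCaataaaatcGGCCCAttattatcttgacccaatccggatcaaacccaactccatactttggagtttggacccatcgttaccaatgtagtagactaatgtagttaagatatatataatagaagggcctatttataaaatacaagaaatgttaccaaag
AT2G37600: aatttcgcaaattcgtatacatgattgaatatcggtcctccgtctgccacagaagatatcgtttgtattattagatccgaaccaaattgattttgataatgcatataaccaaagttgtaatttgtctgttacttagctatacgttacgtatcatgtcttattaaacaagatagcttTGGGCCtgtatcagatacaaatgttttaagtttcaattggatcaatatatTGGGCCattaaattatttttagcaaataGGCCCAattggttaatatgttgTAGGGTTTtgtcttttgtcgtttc
AT1G18540: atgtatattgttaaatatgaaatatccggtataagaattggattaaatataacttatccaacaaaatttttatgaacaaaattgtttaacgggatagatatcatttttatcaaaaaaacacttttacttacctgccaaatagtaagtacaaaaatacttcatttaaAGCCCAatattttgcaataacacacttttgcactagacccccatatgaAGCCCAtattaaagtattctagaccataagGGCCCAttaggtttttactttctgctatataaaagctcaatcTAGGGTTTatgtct
In AT2G37600 and AT1G18540 the telo-box began 24 and 14 bp before the start site, with 3 site II elements further upstream, and in FIB1 it began 207 bp before it, upstream of both site II elements. These motifs, and the promoters shown, were chosen after values of these data were seen. Both ribosomal protein promoters shown hold a telo-box, whereas 9 of the 59 ribosomal protein genes in members did.

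The gains were small in most members. The median domain held 404 reads after 2 h JA and 346.5 in the control in the large-scale experiment, and 487 reads after 2 h JA and 395 in the control in the time course. Each list gives 1 count per condition from merged replicates, so the spread between replicates is unknown, and all intervals below cover counting error only. The scaled log2 ratio, JA over control after both counts are set to equal library totals, had a median of 0.28 (0.08 to 2.1) in the large-scale data and of 0.29 (0.06 to 2.27) in the time course. Below, a value in parentheses after counts is this ratio, and counts with no experiment named are large-scale. Time course values are those of the overlapping time course domain, which was wider than the member in 236 cases, narrower in 160 and of equal width in 214. Because the rule asked for a gain in both lists, these ratios describe the members and carry no test.

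The scaling itself made up part of the ratio. Recovered library totals were 1.05 times as large in the control as under JA in the large-scale data, which adds 0.08 to each plain log2 ratio, and 1.01 times in the time course, which adds 0.02. Without it, the median log2 ratio was 0.21 in the large-scale data and 0.28 in the time course. The exact 95% counting interval of the scaled ratio lay above 0 in 499 members in the large-scale experiment and in 513 in the time course. On plain counts it did so in 285 and in 473, and in both experiments at once in 238 of the 610 members. In the large-scale data these shares were near those of all large-scale gains, 81.8% against 80.2% scaled and 46.7% against 45.4% plain. For both experiments at once the plain share was 39.0% of members. It was higher in the other repeated gains, 66.7% of the MYC2-bound ones and 75.9% of those in H3K27me3.

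Few members gained strongly. A scaled log2 ratio of at least 1, a doubling, was reached by 13 members (2.13%) in the large-scale experiment, against 3.87% of all large-scale gains, and by 9 members (1.48%) in the time course, against 4.55% of all repeated gains. In both experiments 39 members (6.39%) reached at least 0.5, against 15.8% of all repeated gains. The median large-scale ratio was 0.34 in the MYC2-bound repeated gains and 0.49 in those in H3K27me3, and their time course medians were 0.31 and 0.48. The plot of ratios in both experiments shows the members along the diagonal, with 316 higher in the time course than in the large-scale experiment. Across the 610 members the 2 ratios had a Spearman rho of 0.467 and a Pearson r of 0.597, a description over domains that were all chosen to be gained in both.

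**Figure D1:**
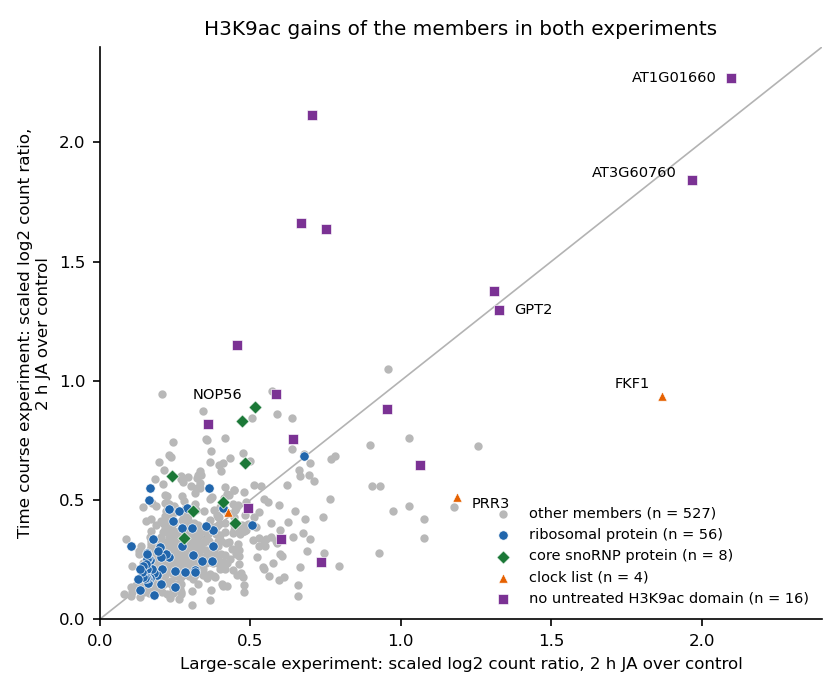
Each point is 1 member, placed by its scaled log2 count ratio of 2 h JA over control in the large-scale experiment (x axis) and in the time course (y axis), and the grey line marks equal ratios. Domains with ribosomal protein genes (n = 56) sit at low ratios up to 0.68 on both axes, whereas the 3 points with the highest large-scale ratio are AT1G01660 and AT3G60760, with no H3K9ac domain in any untreated library, and FKF1 of the clock list. BOA is in both of these groups, and other high points such as HCAR are in neither.

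The highest ratios were at domains with few control reads. AT1G01660, which encodes a RING/U-box family protein, held 134 reads after 2 h JA and 33 in the control in the large-scale experiment, and 286 JA and 60 control reads in the time course. Its scaled log2 ratios, 2.1 (95% counting interval 1.54 to 2.69) and 2.27 (1.86 to 2.69), were the highest in both experiments. AT3G60760, which encodes an uncharacterized protein, followed in the large-scale experiment with 141 reads after 2 h JA and 38 in the control (1.97), and had 202 JA and 57 control reads in the time course (1.84). In both genes the JA count was more than 3 times the control count in each experiment, and neither domain touched an H3K9ac domain in any of the 5 untreated libraries. The domain at AT1G01660 lay 2103 to 2702 bp past its start site and 80 bp from a MYC2 peak. That at AT3G60760 lay 304 bp from a MYC2 peak.

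GPT2, the glucose-6-phosphate translocator of plastids, known as a sugar-responsive gene, held 297 reads after 2 h JA and 125 in the control in the large-scale experiment, and 299 JA and 123 control reads in the time course, with nearly equal log2 ratios of 1.33 and 1.3. An intergenic domain at chr4:11633401-11633800, 144 bp from a MYC2 peak, held 80 reads after 2 h JA and 34 in the control (1.31), and 321 JA and 125 control reads in the time course (1.38). HCAR, the enzyme that returns chlorophyll b towards chlorophyll a, held 129 JA and 57 control reads in the large-scale experiment (1.26) and 265 JA and 162 control reads in the time course (0.73). ANNAT3, an annexin that binds membranes with calcium, held 269 JA and 146 control reads (0.96), and 579 JA and 283 control reads in the time course (1.05). HCAR and ANNAT3 carried H3K9ac in all 5 untreated libraries, unlike GPT2 and the intergenic domain.

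Several of the high large-scale ratios were less than 0.5 in the time course. HDA14, a histone deacetylase gene, held 110 reads after 2 h JA and 55 in the control in the large-scale experiment (1.08), and 1763 JA and 1409 control reads in the time course (0.34). Its overlapping time course domain was 7000 bp wide, against 600 bp of the member, so these ratios are over different stretches. AT5G23240, a DnaJ-domain protein gene, held 146 JA and 73 control reads (1.08) in the large-scale experiment and 1007 JA and 761 control reads (0.42) in the time course. Its control count was far higher in the time course, and here too the domains of the 2 experiments need not span the same stretch. AT1G10770 shared its time course gain, of 979 JA and 713 control reads (0.47), with the neighbouring member at SEX1, and 12 members in all shared a time course gain with another, which left 604 distinct gains behind the 610. AT2G39920 and AT4G33980 had large-scale ratios of 1.18 and 0.98, and time course ratios of 0.47 and 0.45. AT3G15720, at 1.03 in the large-scale experiment, stayed above 0.5 in the time course, at 0.76.

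**Figure D2:**
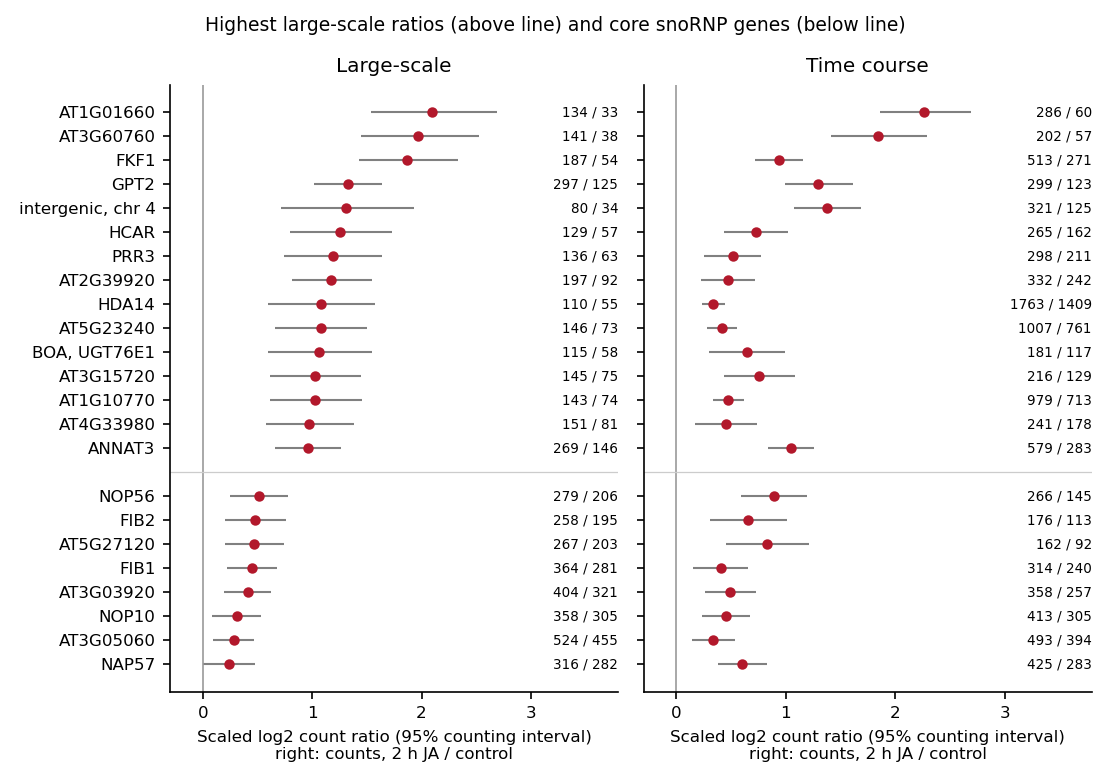
Scaled log2 count ratios of 2 h JA over control (points) with exact 95% counting intervals (bars) in the large-scale experiment (left) and the time course (right), for the 15 members with the highest large-scale ratio (above the line) and the 8 core snoRNP genes (below it), with the counts at the right of each panel. FKF1 and PRR3 lie further right in the large-scale experiment than in the time course, where their domains were wider, and the time course points of NOP56 and NAP57 lie further right than their large-scale points.

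Among members that began with at least 500 control reads in both experiments, the highest product of both ratios belonged to AT5G02940, with 838 reads after 2 h JA and 595 in the control (0.57) and 1114 JA and 580 control reads in the time course (0.96). Its domain ended 12 bp from a MYC2 peak. AT4G34950 with ARO1 followed, at 921 JA and 681 control reads (0.51), with 1486 JA and 1018 control reads in the time course (0.56), then AT5G53750 at 934 JA and 707 control reads (0.48), with 927 JA and 647 control reads in the time course (0.53). RPL23AB, a protein of the large ribosomal subunit, had 654 JA and 537 control reads (0.36), and 828 JA and 571 control reads in the time course (0.55). The domain at RPL23AB lay 44 bp from a MYC2 peak, that at AT5G53750 431 bp and that at AT4G34950 with ARO1 5868 bp.

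Among the clock genes, FKF1 and PRR3 had high ratios. Of 21 clock genes matched, 5 lay in a large-scale gain and 4 of these in members, 1 of them (BOA) far from its start site, whereas 10.2% of all coding genes lay in a large-scale gain and 2.84% in a member. FKF1 held 187 reads after 2 h JA and 54 in the control in the large-scale experiment (chr1:25508601-25509400, log2 ratio 1.87, interval 1.43 to 2.33), and 513 JA and 271 control reads in the time course (0.94, 0.72 to 1.15). PRR3, a pseudo-response regulator of the clock, held 136 JA and 63 control reads (1.19), and 298 JA and 211 control reads in the time course (0.51). The time course domains were wider, 1600 bp against 800 bp of the member at FKF1 and 1400 bp against 600 bp at PRR3, so the ratios of the experiments are over different stretches. PRR5 held 1261 reads after 2 h JA and 991 in the control (0.42), and 2417 JA and 1788 control reads in the time course (0.45). The domain assigned to BOA, a relative of the evening complex protein LUX, held 115 JA and 58 control reads (1.06) and 181 JA and 117 control reads in the time course (0.64), but it lay 2913 to 3712 bp past the BOA start site and also lay over the first part of the glucosyltransferase gene UGT76E1 on the other strand.

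TOC1, a core evening repressor, was the remaining clock gene in a large-scale gain (803 reads after 2 h JA and 629 in the control, 0.43) and had no time course gain. In the list of time course losses, the morning genes CCA1 and LHY had log2 ratios of -0.30 and -0.46, and RVE1, RVE4 and LNK2 had -0.54, -0.15 and -0.66. Other evening genes of the list, GI, ELF3, ELF4 and LUX, were in no gain of either experiment. PRR7, PRR9, RVE8, LNK1 and LKP2 of the list were in no gain and in no time course loss. ZTL and CHE had time course gains of 0.25 and 0.08 and no large-scale gain. The labels give no hour of harvest, and its part in these values was not tested. GRP7, an RNA-binding protein gene under clock control that was picked after its values were seen, held 559 reads after 2 h JA and 309 in the control (0.93) and 778 JA and 534 control reads in the time course (0.56).

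Ribosomal protein genes made up a larger share of the genes in members than in the other sets of gains. By product name, 59 of the 779 coding genes that members overlapped encoded ribosomal proteins (7.57%), against 11 of the genes in MYC2-bound repeated gains (2.41%), 3.67% of the genes in all large-scale gains and 1.41% of the annotation. Members overlapped 2.84% of all coding genes, and all large-scale gains overlapped 10.2%. Counted by 1 main gene per member, the share was 7.54%. The groups of genes by product were settled with results of these data in view, and domains are not replicates, so no test was run.

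The gain on each ribosomal protein gene was slight. In the 56 domains that held these 59 genes, the median log2 ratio was 0.20 (0.10 to 0.68) in the large-scale data and 0.25 (0.10 to 0.68) in the time course. On plain counts the interval lay above 0 in 17 of the 56 in the large-scale experiment (30.4%), against 46.7% of all members, and in 45 of the 56 in the time course (80.4%), against 77.5%. These domains were well covered, with a median of 348 control reads per kb against 279 over all members. Among the members whose plain interval lay above 0 in both experiments, 13 of 292 coding genes encoded ribosomal proteins (4.45%). AT1G54217, of the ribosomal protein L18ae family by product name, was highest with 167 reads after 2 h JA and 110 in the control (0.68), and 205 JA and 129 control reads in the time course (0.68). The widest member, of 7400 bp at chr2:8510801-8518200, held 4 ribosomal protein genes beside the profilin gene PRF1, and counted 2134 reads after 2 h JA and 2095 in the control (0.10), and 922 JA and 754 control reads in the time course (0.31).

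**Figure D3:**
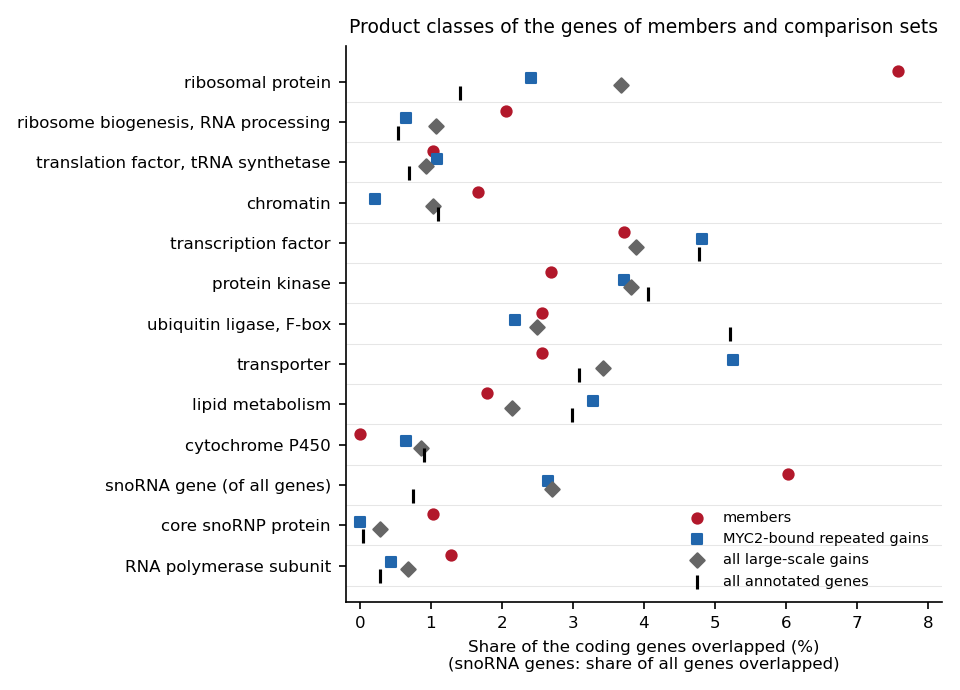
Share of the coding genes overlapped (x axis, percent; for snoRNA genes, of all genes overlapped) by product group (y axis), for members, MYC2-bound repeated gains, all large-scale gains and all annotated genes. Ribosomal protein genes made up 7.57% of the member genes and snoRNA genes 6.04%, further right than in the other sets. Cytochrome P450 genes made up 0% of the member genes, a share that the rule largely sets.

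Genes for the machinery that makes ribosomes had higher ratios than the ribosomal protein genes. Core proteins of the box C/D and box H/ACA snoRNPs, the particles that methylate and pseudouridylate ribosomal RNA, have 12 annotated genes here. Of these, 8 lay in a large-scale gain (0.285% of the genes in all gains) and all 8 were in members. NOP56, a box C/D scaffold protein, held 279 reads after 2 h JA and 206 in the control in the large-scale experiment (0.51), and 266 JA and 145 control reads in the time course (0.89). FIB2, a fibrillarin, held 258 JA and 195 control reads (0.48), and 176 JA and 113 control reads in the time course (0.65). Its paralogue FIB1, whose promoter is printed above, held 364 JA and 281 control reads (0.45), and 314 JA and 240 control reads in the time course (0.40). AT5G27120, of the NOP56 and NOP58 family, held 267 JA and 203 control reads (0.47), and 162 JA and 92 control reads in the time course (0.83).

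Genes for box H/ACA proteins were in members too. AT3G03920, a Gar1 family gene, held 404 reads after 2 h JA and 321 in the control (0.41), and 358 JA and 257 control reads in the time course (0.49). NOP10 held 358 JA and 305 control reads (0.31), and 413 JA and 305 control reads in the time course (0.45). NAP57, the pseudouridine synthase, held 316 JA and 282 control reads (0.24), and 425 JA and 283 control reads in the time course (0.60). AT3G05060, again of the box C/D scaffold family, held 524 JA and 455 control reads (0.28), and 493 JA and 394 control reads in the time course (0.34). Over the 8 domains the median was 0.43 in the large-scale data and 0.55 in the time course, against 0.28 and 0.29 over all members, and the plain interval lay above 0 in 7 of 8 and in 8 of 8. This group was formed after these genes were seen.

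The wider group of ribosome biogenesis and RNA processing genes counted 16 of the member genes (2.05%), against 3 in MYC2-bound repeated gains (0.66%) and 1.07% of genes in all gains, with median log2 ratios of 0.30, and 0.35 in the time course. NUC-L1, nucleolin, held 322 reads after 2 h JA and 258 in the control (0.40), and 377 JA and 289 control reads in the time course (0.40). STRS2, a DEAD-box RNA helicase, held 279 JA and 232 control reads (0.34), and 332 JA and 183 control reads in the time course (0.87). PMH1, a mitochondrial RNA helicase, held 178 JA and 122 control reads (0.62), and 209 JA and 143 control reads in the time course (0.56). PWP2, a part of the U3 processome, held 324 JA and 236 control reads (0.53), and 220 JA and 151 control reads in the time course (0.56).

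Genes for RNA polymerase subunits added 10 members (1.28% of coding genes, against 0.678% in all gains). Among them were both large subunits of RNA polymerase I, which transcribes ribosomal RNA genes. NRPA1 held 234 reads after 2 h JA and 189 in the control (0.38), and 213 JA and 168 control reads in the time course (0.36). NRPA2 held 238 JA and 199 control reads (0.34), and 206 JA and 137 control reads in the time course (0.60). Of the 30 annotated genes for mitochondrial protein import, 9 lay in a gain and 8 of these in members (1.03% of the member genes, against 0.321% of the genes in all gains), at median ratios of 0.28, and 0.27 in the time course. On plain counts the interval lay above 0 in 2 of these 8 domains, and in 5 of 8 in the time course.

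The RNA side of the snoRNPs lay in the members as well. They overlapped 55 of 287 annotated snoRNA genes, which was 6.04% of the 911 genes of all kinds that they touched, against 14 genes (2.65%) in MYC2-bound repeated gains, 2.71% in all gains and 0.757% in the annotation. The 55 genes sat in 23 members, 9 of which held at least 3, so that the genes are not independent. The 23 domains had a median log2 ratio of 0.19, under the 0.28 of all members, and of 0.27 in the time course. On plain counts the interval lay above 0 in 5 of the 23, and in 22 of the 23 in the time course. Of the 55, 17 lay inside a coding gene, 8 of these in a ribosomal protein gene, where the gain of the host and that of the snoRNA cannot be told apart. The member with most, 7 snoRNA genes at chr2:15027601-15030400, held 747 reads after 2 h JA and 700 in the control (0.17), and 606 JA and 474 control reads in the time course (0.37). In all, 96 members (15.7%) held a ribosomal protein, ribosome biogenesis, core snoRNP or snoRNA gene, against 6.82% of MYC2-bound repeated gains, 1.34% of those in H3K27me3, 4.88% of gains not repeated and 7.84% of all gains.

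Few of the jasmonate genes that lay in gains were in members, a count that the rule largely sets, since it leaves out gains with a MYC2 peak or H3K27me3. Of 535 genes in 22 pathway lists, 146 lay in a large-scale gain (27.3%) but 22 in a member (4.11%), so that members took 15.1% of the listed genes in gains and 27.8% of all coding genes in gains. Of 14 JA synthesis genes in a gain, 4 were in MYC2-bound repeated gains and 7 in repeated gains in H3K27me3, and ACX1, a peroxisomal oxidase of the last steps, was in a member, with 600 reads after 2 h JA and 542 in the control (0.22). Of 14 JA signalling genes in a gain, 9 and 4 were in those sets, and JAZ12, a JAZ repressor, was in a member, with 1112 JA and 990 control reads (0.24). No gene of the lists for JA turnover or indole glucosinolates was, although 6 and 10 of their genes lay in gains.

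From the other lists, the tryptophan pathway had 4 of its 12 genes in gains among the members, led by ASA1, which makes anthranilate, with 474 reads after 2 h JA and 308 in the control (0.70; 0.34 in the time course). Of the wound and defence markers, 2 of 15 were members: ERF1, which joins ethylene and JA responses, with 386 JA and 269 control reads (0.60, and 0.37 in the time course), and ERF2 with 1407 JA and 1318 control reads (0.17, and 0.29 in the time course). The drought gene RD29A held 630 JA and 427 control reads (0.64), and its time course ratio was 0.84, while ERD10 was at 0.18, and 0.22 in the time course. Starch and sugar genes gave GPT2, SEX1, which phosphorylates starch, and APL4, a subunit of the starch-building pyrophosphorylase, with APL4 at 289 JA and 243 control reads (0.33, and 0.61 in the time course). Aliphatic glucosinolates gave BCAT3 and IPMI2, sulfate assimilation APS3, protein folding CNX1 and immunity WRKY33. The time course gains of the domains at IPMI2 and WRKY33 did not reach these genes, and WRKY33 itself lay in a time course loss (-0.22). BCAT3, IPMI2, ERF2, APL4 and BOA had a MYC2 peak in the gene, outside the member. The other 11 lists, photosynthesis and auxin among them, had no member. In these 2 lists there were few gains of any kind, with 0 of 45 photosynthesis genes and 2 of 42 auxin genes in a large-scale gain.

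Transcription factor genes were at about their share in all gains. The members overlapped 29 transcription factor genes by product name (3.72%, against 3.89% of genes in all gains). AT1G76590, a PLATZ-type gene picked after its values were seen, was highest, with 688 reads after 2 h JA and 388 in the control (0.90), and 837 JA and 574 control reads in the time course (0.56). The 13 chromatin genes (1.67% of the member genes, against 1.03% of genes in all gains and 1.11% of the annotation) included HD2B, a nucleolar plant-type histone deacetylase, with 279 JA and 224 control reads (0.39), and 257 JA and 193 control reads in the time course (0.43). No cytochrome P450 gene lay in a member, against 24 in all gains (0.856% of genes). Of these, 15 were in repeated gains in H3K27me3 and 3 in MYC2-bound repeated gains, which the rule leaves out, and 6 in gains not repeated. The rule thus largely sets this count.

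Marks that the rule did not use were present on most members. Before any treatment, 588 of the 610 members (96.4%) overlapped pooled H3K9ac, against 97.3% of MYC2-bound repeated gains and 92.0% of all gains. The pooled list was filed with a PHILO sample, but its counts resemble those of the regular libraries, so its source is uncertain. H3K4me3 was met by 94.4% of the members, against 93.2% of MYC2-bound repeated gains and 88.1% of all gains, and H3K36me3 by 86.7%, against 83.3% and 75.3%. Repeated gains in H3K27me3, which the rule leaves out, met H3K4me3 in 71.4% and H3K36me3 in 27.7%. All gains include them, so the contrasts with all gains in these marks are partly set by the rule. The marks filled more of the members. H3K4me3 covered at least 50% of the domain in 86.1% of members and in 58.7% of MYC2-bound repeated gains, and H3K36me3 did so in 82.8% and 63.6%. The median member had H3K36me3 over 100% of its length, against 61.0% in MYC2-bound repeated gains, which were wider (median 1200 bp in members and 2600 bp in MYC2-bound repeated gains). Neither mark was met by 28 members (4.59%), against 6.06% of MYC2-bound repeated gains and 10.7% of all gains.

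The level of H3K9ac before treatment differed little between the sets. Each member or other gain was given the level of the untreated H3K9ac domain with the longest overlap, which need not span the same stretch. Those without such a domain in a library were left out there, so that 568 to 592 of the 610 members counted. In the 5 untreated libraries the median log2 H3K9ac over IgG of the members was 1.32 and 1.41 in the 2 regular replicates and 1.83, 1.88 and 1.87 in the 3 PHILO replicates, against 1.35, 1.42, 1.87, 1.95 and 1.97 at MYC2-bound repeated gains. The members were lower in 5 of 5 libraries, with a mean difference of -0.05 ± 0.03 (SD, n = 5; two-sided exact permutation test with signs flipped, p = 0.062, the smallest that 5 libraries can give). This did not pass 0.05, and could not. Set against all large-scale gains, the mean difference was 0.00038 (p = 0.9375 in the same exact permutation test, lower in 3 of 5 libraries). That set includes the members themselves, which draws the difference towards 0. The gains not repeated, which hold no member, had medians of 1.37, 1.41, 1.82, 1.89 and 1.88 in the same order, and were not tested. The regular and PHILO libraries differed by more than the sets did, as the plot of untreated levels shows.

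**Figure D4:**
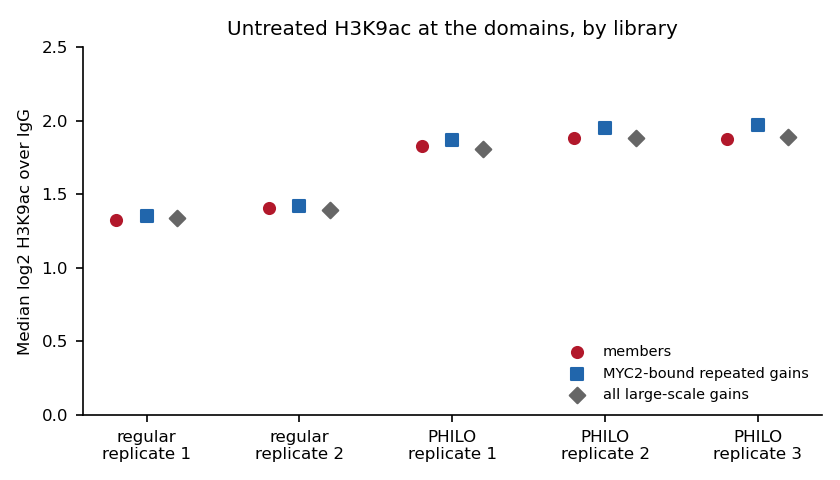
Median log2 H3K9ac over IgG (y axis) at members, MYC2-bound repeated gains and all large-scale gains in each of the 5 untreated libraries (x axis), over the domains that meet an H3K9ac domain in that library. Members sit just under MYC2-bound repeated gains in each library, and the regular libraries lie at 1.32 to 1.42 whereas the PHILO libraries lie at 1.81 to 1.97.

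The domains lay over the first part of genes. Of the 610 members, 607 overlapped a gene and 597 a coding gene, and 314 (51.5%) held a coding start site, against 73.1% of MYC2-bound repeated gains and 52.9% of all gains. The 5′ edge stood at a median of 5 bp past the start site of the main gene, with quartiles 116 bp before and 110 bp past it, and the 3′ edge at 1110 bp, against medians of -87 and 2074 bp for MYC2-bound repeated gains. Of the bases in members, 42.9% were coding, 23.7% in other exon sequence, 25.8% in introns and 7.63% between genes, against 19.7% between genes in MYC2-bound repeated gains. At 500 bp before the start site 18.3% of members with a main coding gene covered the position and 40.1% of MYC2-bound repeated gains did. A domain that reaches upstream has more room to meet a MYC2 peak, so this difference is bound up with the rule.

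**Figure D5:**
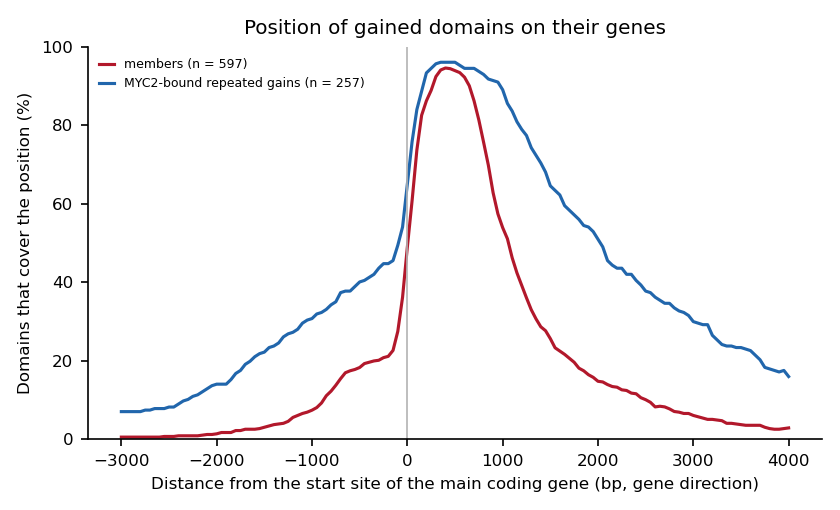
Share of domains that cover each position (y axis, percent) by distance from the start site of the main coding gene (x axis, bp, in gene direction), for members and MYC2-bound repeated gains with a main coding gene. Both curves peak within the first 1 kb and stand at 94.0% and 96.1% at 500 bp, and at 2000 bp 14.7% of members and 51.0% of MYC2-bound repeated gains still cover the position.

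Motifs were then counted in the promoters. Among 431 coding genes that start in a member, 10.4% held a G-box in the 300 bp before the start site, against 20.8% of 322 genes that start in a MYC2-bound repeated gain, 13.9% of 1610 that start in any large-scale gain and 7.09% of all 27443 coding genes with such a window. The telo-box was in 18.1% of member promoters, 5.59% of MYC2-bound ones, 9.63% of those in any gain and 5.21% of all. Counted by 1 gene per member it was in 14.6%. Site II elements were in 39.7% of member promoters, 24.5% of MYC2-bound ones, 30.2% of those in any gain and 20.8% of all. The evening element was in 4.41% of member promoters, close to the 4.53% in any gain, in 6.21% of MYC2-bound ones and 2.79% of all, and in 3 of the 14 main genes of the 15 members with the highest large-scale ratio. Telo-boxes were not confined to ribosomal protein genes. Of the 59 ribosomal protein genes in members, 15.3% held one, close to the 16.6% of all 386 ribosomal protein genes. Site II elements were in 55.9% of those 59 and in 56.0% of the 386. A match is a run of letters and says nothing of a factor at it, and the absence of MYC2 peaks is part of the rule.

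Within whole domains, telo-boxes were found at 0.500 per kb in members, 0.159 in MYC2-bound repeated gains, 0.286 in all gains and 0.166 in the nuclear genome. A member at the end of chromosome 2, where the sequence is telomere repeat, held 39 of the 453 matches, and without it the members were at 0.457 per kb. G-boxes were at 0.114 per kb in members, 0.257 in MYC2-bound repeated gains and 0.122 in the genome.

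MYC2 peaks were near some members all the same. The nearest of 3464 peaks was a median of 7110.5 bp away, but 89 members (14.6%) lay within 500 bp, and 104 of the 597 main genes had a peak in the gene or in the 1 kb before it. These shares were not computed for other gains or for all coding genes, so they do not show that members lie nearer to peaks than other regions. The gains not repeated, some of which overlap a peak, lay a median of 7657.5 bp away. The 128 members within 1 kb of a peak had median log2 ratios of 0.31 and 0.32 in the large-scale and time course experiments, the 223 at 1 to 10 kb had 0.28 and 0.27, and the 259 farther off had 0.27 and 0.29. A ratio of at least 0.5 in the large-scale experiment was reached by 29 of the 128 (22.7%), 28 of the 223 (12.6%) and 29 of the 259 (11.2%).

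Just inside the edge of the rule, the domain of AT2G16365 ended 5 bp from a MYC2 peak (474 reads after 2 h JA and 421 in the control, 0.25), those of EMS1 and ERD2 6 and 7 bp from it (0.41 and 0.70), and that of AFP3 7 bp from it (0.19). Just outside, AT5G59140 shared 2 bp with a peak (411 JA and 366 control reads, 0.24) and LARP1c shared 10 bp (167 JA and 56 control reads, 1.65, and 1.11 in the time course). On the side of H3K27me3, AT2G30840 and SIP2 shared 200 bp with a domain and had ratios of 0.40 and 0.61. The lowest ratios inside were SAUR21 with 2225 reads after 2 h JA and 2218 in the control (0.08), and WRKY33 with 1861 JA and 1849 control reads (0.09), whose plain counts barely differed. WRKY33 shared 600 of its 5600 bp with a time course gain, and was also the member that touched a time course loss, the only such case among the 610 (0.164%, against 3.03% of MYC2-bound repeated gains and 1.79% of those in H3K27me3). A domain chosen for a time course gain has little room for a loss, and the MYC2-bound domains were wider. The shortest shared length with a time course gain was 9.09% of the domain.

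A last group of 16 members (2.62%) touched no H3K9ac domain in any untreated library. Of these, 4 matched organelle DNA, at chr2:3333201-3335200, chr2:3468201-3468800, chr2:3495601-3497600 and chr3:7103601-7104600, where reads of the organelle and the nuclear copy cannot be told apart. The other 12 had median ratios of 0.83, and 1.05 in the time course, 5 of them reached 1 in the large-scale experiment, and 8 lay within 500 bp of a MYC2 peak, against 14.6% of all members. Besides AT1G01660, AT3G60760, GPT2, BOA and the domain on chromosome 4, they included AT2G44580, with 167 reads after 2 h JA and 108 in the control (0.71) and 90 JA and 21 control reads in the time course (2.11) in a domain that shared 200 of the 1200 bp of the member, and AT1G10530, with 178 JA and 97 control reads (0.95) and 272 JA and 149 control reads in the time course (0.88). The member at chr2:19698001-19698400 runs past the last base of the chromosome, 19698289, and counted 186 JA and 143 control reads (0.46), and 818 JA and 372 control reads in the time course (1.15). Another copy in the genome was found for 8 members, such as the translation initiation factor genes AT1G53880 and AT1G53900, with 984 JA and 892 control reads (0.22) and 982 JA and 884 control reads (0.23), between which reads could be split.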

How the data were processed

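Chromatin of pooled whole seedlings was profiled by PHILO or regular ChIP-seq. Per the submitters' processing notes and the study's methods, reads were aligned to TAIR10 with Bowtie2 2.4.1, domains were called with epic2 (SICER, 0.0.52) and MYC2 peaks with MACS2 2.2.7.1, and deepTools 3.5.2 was used. The authors merged the 3 replicates before calling and deposited, for each domain, whole-number counts of the treatment and of its comparator without normalization. The authors' log2 fold columns were used for untreated domains over IgG and, in the JA lists, only to recover the ratio of library totals. Of the narrowPeak file the position and summit of each deposited peak were used, and no other score. The authors' p-values, FDR and JA fold changes are their own comparisons and are not reported. The lists hold only domains past the authors' threshold, and library depth is not in the files.

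Members were found by overlap of at least 1 bp. Scaled log2 ratios are the log2 of 2 h JA over control counts plus the recovered log2 ratio of totals, with no pseudocount. Intervals are exact binomial at 95%, shares were also computed with Wilson intervals, and both cover counting error only. Untreated levels were compared with an exact paired permutation test over 5 libraries, and since the labels do not say that replicates were separate cultures, p measures only the spread between these samples, which may be technical. Genes and promoter windows came from the TAIR10.1 RefSeq annotation (chromosomes 1 to 5, same lengths as the build of the files), and organelle-like sequence was called with blastn 2.17.0+ (at least 95% identity over 500 bp, covering 50%). Motifs were counted on both strands, overlaps included. Matches of different motifs may share bases.

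Named members were the 15 and 10 with the highest large-scale and time course ratios, the 10 with most control reads, the 5 widest, the 5 with the lowest ratio, the 5 closest to a MYC2 peak, those in a pathway list, and the 5 with the highest product of ratios at 500 or more control reads. Ribosome-related, snoRNP, RNA polymerase and import genes, other names and the alternatives marked as added were chosen after their values were seen. The members and lists were chosen with earlier results of these data known. The code (Python 3.11.15, numpy 2.4.6, pandas 2.3.3, scipy 1.17.1, matplotlib 3.10.9) was tested on simulated lists.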

Additional observations from a re-analysis of the deposited data

How the results depend on the processing

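Of the recomputed values, 28 stayed close to the reported ones, 13 moved and 3 changed sign. The 610 members became 39 where both scaled log2 ratios had to reach 0.5 and 238 where both plain counting intervals had to lie above 0, a setting added after seeing the data, and between 482 and 781 under the other definitions of overlap, MYC2 and H3K27me3. The median large-scale log2 ratio was 0.21 from plain counts and 0.30 after correction for positions already taken, and the time course median was 0.32 after that correction. With a mark covering at least 50% of the domain, H3K4me3 was met by 86.1% and H3K36me3 by 82.8%, and with mark domains of log2 over IgG of at least 1, H3K36me3 by 82.6% and untreated H3K9ac by 72.6%. The last value rests on levels in the pooled H3K9ac list, whose source is uncertain. Start sites of all genes lay in 55.7%, and 10.4% had a G-box when promoters were searched in place of domains. In settings added after seeing the data, ribosomal proteins were 4.45% of coding genes among members with both plain intervals above 0, and 14.6% of promoters had a telo-box with 1 gene per member. Leaving out each library gave members minus MYC2-bound repeated gains of -0.057 to -0.036, and members minus all large-scale gains of -0.0038 to 0.0042, with -0.0035 without regular replicate 2, -0.0038 without PHILO replicate 1 and -0.0042 in domains of 1000 to 2000 bp. No paired analysis was possible because the JA lists hold 1 pooled count per condition and the 5 untreated libraries are already compared within each library. Merged counts leave replicate error unknown, so small ratios cannot be separated from differences between replicates, and lists of gains hide domains that did not pass.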
